A study of Mus musculus with 6 samples.

Results

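The ubiquitin-conjugating enzymes, or E2 enzymes, were examined in adult mouse retina with and without Trim9. The members were the genes whose symbol begins with Ube2 followed by a letter and that were named alone by at least 1 probe set, a group of short oligonucleotides that together read 1 transcript. There were 33 such genes among the 18193 genes on the array, read by 81 of 34945 probe sets that name 1 gene. Of the 33, 9 genes had 1 probe set and 24 had several, with up to 7 for Ube2d3. The symbol rule also took in 2 genes that are not E2 enzymes. Ube2cbp, now called Ube3d, encodes a protein that binds an E2, and Ube2d-ps is listed in RefSeq as a non-coding gene, which left 31 genes of the E2 fold. Ube2l3 was not read, because each of its 4 probe sets names several genes.

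Ubiquitin is passed along a chain of enzymes. An E1 activates it, an E2 carries it on a cysteine, and an E3 ligase brings the loaded E2 to the protein to be marked. The choice of E2 helps to set which lysine is used and whether a single ubiquitin or a chain is built, and so whether the target is degraded or takes on another role. TRIM9, the product of the gene deleted here, is a RING-type E3 ligase of neurons, and ligases of its family work with E2s of the UBE2D and UBE2E class and with UBE2N.

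The samples were retinas of 3 wild-type (WT) mice and 3 Trim9 knockout (KO) mice, adult littermates, with 1 Affymetrix array for each. The KO allele has lost exon 1 of Trim9 through Cre driven by the CMV promoter, which acts in most tissues, so the deletion was not restricted to the retina. One label mentions embryos, which the other labels contradict, and it was not followed. Values are scaled intensities given as log2(intensity + 16), and a log2 fold change is the KO mean less the WT mean on that scale, so that changes of dim genes are understated. Genotypes were compared with limma over all probe sets, with Benjamini-Hochberg adjusted p-values.

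Median intensities of the arrays ranged from 218 to 807, and the median log2 fold change over all 18193 genes was 0.14. It was 0.024 after quantile normalization and -0.19 when the array medians were made equal, so changes are read against it. Trim9 KO replicate 1 stood apart, with Pearson's r of 0.466 to 0.516 with the other arrays over all probe sets, against 0.655 to 0.887 among the other 5 arrays. The brightest probe set of Trim9 itself read 12.05, 10.80 and 10.72 in WT and 10.56, 9.0 and 8.58 in Trim9 KO replicates 1, 2 and 3, and its position with respect to the deleted exon was not determined. Its other 3 probe sets had log2 fold changes of -2.48, also without overlap, and of -0.77 and -0.58 with overlap. The change of -2.48 was -1.03 without Trim9 KO replicate 1, which read 5.70 on that probe set. Without the same array the brightest probe set had -2.40, and those with overlap had -1.08 and -1.24. The rod gene Nrl was bright on all 6 arrays, at 16.16 to 17.39. Nothing states whether both retinas of a mouse were pooled, and the p-values measure only the spread between these samples. In whole retina, fewer cells of a type and less RNA per cell cannot be told apart.

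Most E2 genes were bright in retina. Of the 33 genes, 29 were on average brighter than the median probe set and 16 were among the brightest 10% of probe sets, which is 48.5% of the members against 17.9% of all genes. The brightness of a probe set also depends on its oligonucleotides, so the order of genes is an order of array signal and not of transcript number. The top 6 were Ube2e3, Ube2d2a, Ube2d3, Ube2g1, Ube2e1 and Ube2h, with mean signals at the 97.2nd to 99.3rd percentile of all probe sets. At the lower end, Ube2t lay at the 49.9th percentile, Ube2u at the 18.1st, Ube2l6 at the 8.95th and Ube2d2b at the 3.83rd. When the genes were ordered by their mean within each genotype, neighbours could mostly not be separated. Of 32 neighbouring pairs, 2 differed by more than their pooled SD in the order of WT means and 2 in the order of KO means. Spearman's rho of the order was 0.61 to 0.804 between Trim9 KO replicate 1 and each other array, 0.712 to 0.971 among the other 5 arrays, and 0.919 between the genotype means.

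**Figure D1:**
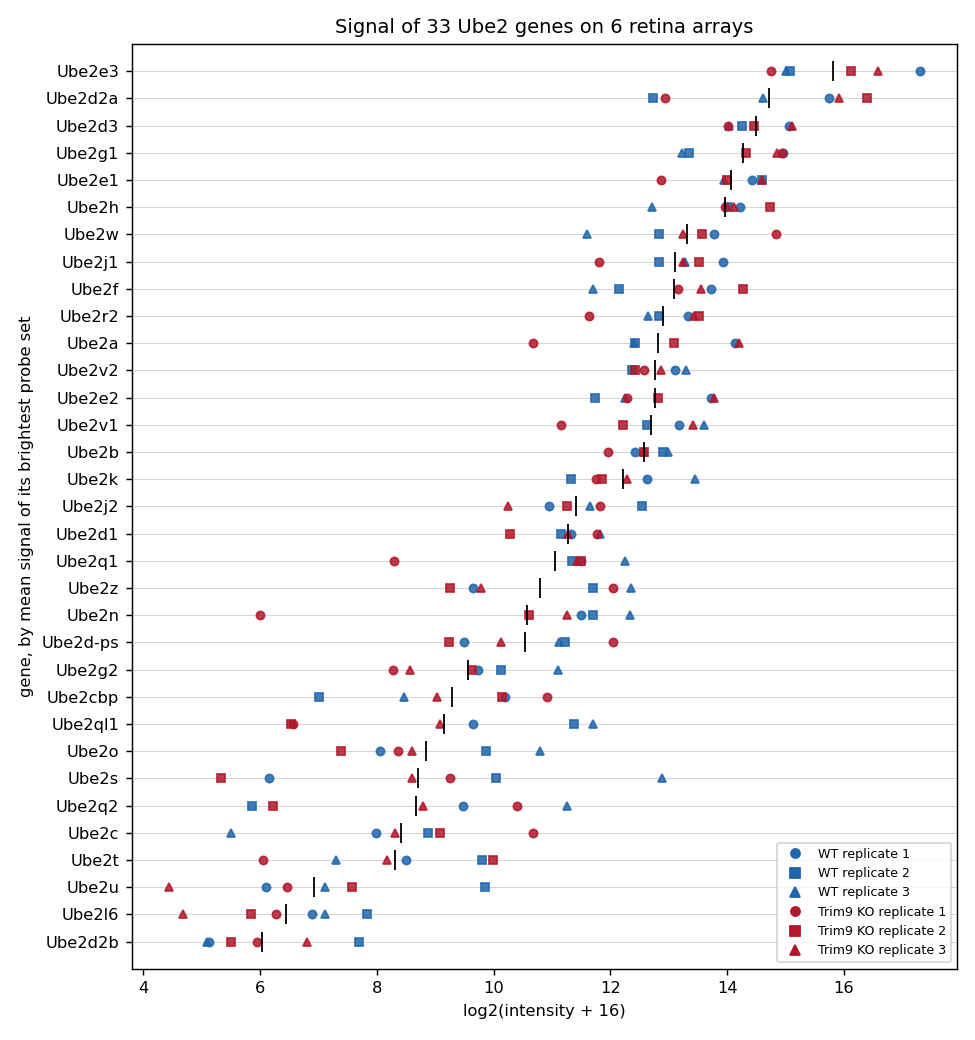
Log2(intensity + 16) (x axis) of the brightest probe set of each of the 33 Ube2 genes (y axis, ordered by mean), where blue points are WT arrays, red points Trim9 KO arrays and a black bar stands at the mean of the 6 arrays. Ube2e3 is at the top (mean 15.81) and Ube2d2b at the bottom (mean 6.03), and the points of the genotypes mix in most rows.

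No member passed an adjusted p of 0.05 in limma, where the lowest adjusted p was 0.999. The share of all 45037 probe sets that passed was 0%. At an unadjusted p under 0.05 there was 1 member, Ube2ql1, where 2.56% of all genes passed. More members had a lower than a higher mean in KO retinas, 22 against 11, or 66.7% lower against 44.8% of all genes. Their median log2 fold change was -0.39, against 0.14 for all genes. There were 8 members (24.2%) below -1, against 13.5% of all genes, and 4 (12.1%) above 1, against 20.6%. These shares are descriptions, with no test of the list. The standard errors of the members were 0.90 to 1.63.

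Leaving out Trim9 KO replicate 1 drew the members closer to the other genes. Without it, 18 members had a lower and 15 a higher mean, and the median was -0.20 against 0.098 for all genes. Of the 33 members, 12 had their lowest value on that array, against 22.3% of all genes, and 13 had their highest on WT replicate 3, against 13.3%. The median signal of the members was 11.49, 11.71 and 12.25 on WT replicates 1, 2 and 3 and 11.75, 11.49 and 11.43 on the KO replicates, so the genotypes overlapped. Dim genes leaned to higher means in KO retinas. When probe sets at or below the median signal were left out, 19 of 29 members were lower against 50% of all genes, and the medians were -0.33 and -0.00053.

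**Figure D2:**
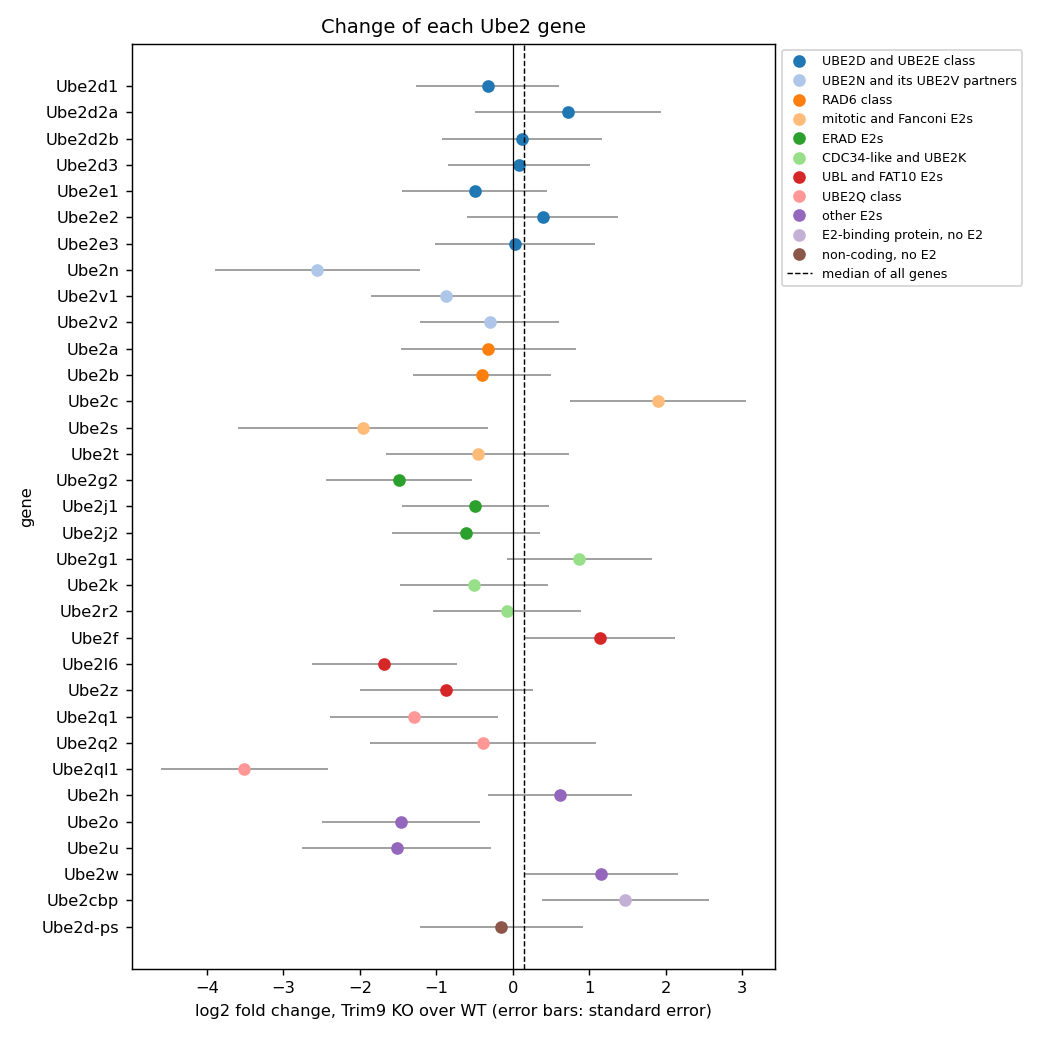
Log2 fold change, Trim9 KO over WT (x axis, bars are the standard error), of each of the 33 Ube2 genes (y axis), coloured by role, with a dashed line at the median of all genes (0.14). Ube2ql1 (-3.51) is the lowest and Ube2c (1.90) the highest, and all 3 genes of the UBE2N group, of the UBE2Q class and of the E2s of endoplasmic reticulum-associated degradation (ERAD) lie below 0.

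The UBE2D and UBE2E enzymes are the general partners of RING ligases, and their 7 genes held 4 of the 5 brightest members. In this class 5 genes had a higher and 2 a lower mean in KO retinas (median log2 fold change 0.082), where 55.2% of all genes were higher, and the split turned to 2 higher and 5 lower with equal array medians and 3 higher and 4 lower after quantile normalization. It also turned without WT replicate 2, WT replicate 3 or Trim9 KO replicate 3, to 1 or 2 higher, so the class had no settled direction. Of the 5, Ube2d2a, Ube2d3, Ube2e2 and Ube2e3 were also brighter on every array with a high 3′ to 5′ ratio of Actb, a measure of RNA quality given further on, and its part was not tested. Ube2e3 read 17.30, 15.08 and 15.00 in WT and 14.75, 16.12 and 16.59 in KO retinas. Its genotypes overlapped, with the highest value in WT replicate 1 and the lowest in Trim9 KO replicate 1, and the log2 fold change was 0.029 (standard error 1.05). Ube2d2a, which encodes one of the near-identical UBE2D enzymes, read 15.74, 12.73 and 14.62 in WT and 12.94, 16.39 and 15.91 in KO retinas. Trim9 KO replicate 1 was again low among the KO arrays, and the log2 fold change of 0.72 (standard error 1.22) was 1.79 without it. It was 0.059 without Trim9 KO replicate 2, -0.10 without WT replicate 2 and -0.45 in the mean of its probe sets. Ube2d3, another UBE2D enzyme, read 15.06, 14.26 and 14.03 in WT and 14.02, 14.46 and 15.11 in KO retinas, which cover nearly the same span (log2 fold change 0.082, standard error 0.93).

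Ube2e1 read 14.42, 14.59 and 13.94 in WT and 12.86, 13.99 and 14.60 in KO retinas. Only Trim9 KO replicate 1 lay below the WT values, and the log2 fold change of -0.50 (standard error 0.95) was -0.02 without it. Ube2e2 read 13.73, 11.74 and 12.25 in WT and 12.29, 12.81 and 13.78 in KO retinas (0.39, standard error 0.99), with WT replicate 1 level with the brightest KO array. Ube2d1 read 11.32, 11.16 and 11.83 in WT and 11.78, 10.28 and 11.27 in KO retinas (-0.33, standard error 0.93), where the groups again overlapped. Ube2d2b, a copy of Ube2d2a in the mouse, was dim, at 5.13, 7.70 and 5.09 in WT and 5.95, 5.51 and 6.81 in KO retinas (0.12, standard error 1.05). The UBE2D genes are close in sequence, and reads of one probe set from the RNA of another member were not tested.

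UBE2N builds ubiquitin chains known mainly for signalling rather than degradation, in a pair with UBE2V1 or UBE2V2, which have the E2 fold but no catalytic cysteine. In KO retinas the brightest probe set of each of the 3 genes had a lower mean. Ube2n read 11.49, 11.71 and 12.34 in WT and 6.0, 10.61 and 11.25 in KO retinas. Every KO array lay below every WT array, and Trim9 KO replicate 1 was far below the rest. The log2 fold change was -2.56 (standard error 1.34, limma adjusted p = 0.999), and -0.92 without that array. The other probe set of Ube2n read 9.39, 10.93 and 12.29 in WT and 8.83, 9.69 and 9.86 in KO retinas, with overlap (-1.41, standard error 1.04). Ube2v1 read 13.18, 12.62 and 13.61 in WT and 11.16, 12.22 and 13.41 in KO retinas (-0.87, standard error 0.98, and -0.32 without Trim9 KO replicate 1), on a probe set that may read more than one transcript. Ube2v2 read 13.11, 12.37 and 13.29 in WT and 12.58, 12.42 and 12.86 in KO retinas, with the KO values inside the WT span (-0.30, standard error 0.91). The other probe sets of Ube2v2 had 0.29, 0.42 and -0.48, and the mean of its probe sets had -0.018.

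Besides Ube2n, 3 members showed no overlap with the KO arrays lower: Ube2ql1, Ube2g2 and Ube2l6. These 4 were 12.1% of the members, against 2.89% of all genes. No member had every KO array above every WT array, which 5.35% of all genes did. Over probe sets the counts were 7 of 81 below (8.64%, against 3.06% of all probe sets that name 1 gene) and 0 above (against 4.92%). For a single gene the two-sided exact permutation test then gives p = 0.1, and no smaller p is possible with 3 arrays in each group. The 3 further probe sets were 1 each of Ube2b, Ube2d3 and Ube2j2, with log2 fold changes of -2.37, -0.99 and -1.54.

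Ube2ql1 belongs to the UBE2Q class and had the largest difference of the 33 genes. It read 9.65, 11.37 and 11.71 in WT and 6.57, 6.53 and 9.08 in KO retinas. The gap between the genotypes lay between Trim9 KO replicate 3 and WT replicate 1. The log2 fold change was -3.51 (standard error 1.09, limma adjusted p = 0.999), -3.10 without Trim9 KO replicate 1, and -4.36 to -3.08 over the 6 fits that left out 1 array each. Its other probe set, dimmer, read 8.48, 10.73 and 6.29 in WT and 9.14, 7.10 and 6.60 in KO retinas. The genotypes overlapped there, and the log2 fold change was -0.89 (standard error 1.26). Of its class, Ube2q1 had a log2 fold change of -1.29 (standard error 1.10), which was -0.24 without Trim9 KO replicate 1, and Ube2q2 of -0.39 (standard error 1.48).

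Ube2g2 is an E2 of ERAD, which removes misfolded proteins from the endoplasmic reticulum. It read 9.73, 10.12 and 11.11 in WT and 8.28, 9.63 and 8.57 in KO retinas. Trim9 KO replicate 2 (9.63) lay closest to WT replicate 1 (9.73), and the log2 fold change was -1.49 (standard error 0.95, adjusted p = 0.999). The second probe set of Ube2g2 had a log2 fold change of -0.30 (standard error 1.10) with overlap. When array medians were made equal, after quantile normalization and with the mean of all probe sets, Ube2g2 was not among the members without overlap. The membrane-anchored E2s of the same pathway, Ube2j1 (-0.49, standard error 0.96) and Ube2j2 (-0.61, standard error 0.97), had overlapping genotypes, but Ube2j2 was without overlap with equal array medians and Ube2j1 in the mean of probe sets.

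Ube2l6 transfers ISG15, a ubiquitin-like protein of the interferon response, and was one of the dimmest members. It read 6.90, 7.83 and 7.12 in WT and 6.28, 5.84 and 4.68 in KO retinas. No value of one genotype reached the other, and the log2 fold change was -1.68 (standard error 0.95, adjusted p = 0.999). Each value was under the median probe set of its array. Of 6 measured interferon response genes, 3 had a lower and 3 a higher mean (median -0.20). Ube2l6 and Ube2ql1 were without overlap under each scaling, and Ube2ql1 also in the mean of its probe sets. Ube2l6 has only 1 probe set, so averaging could not change it. Ube2n overlapped when array medians were made equal or probe sets were averaged.

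**Figure D3:**
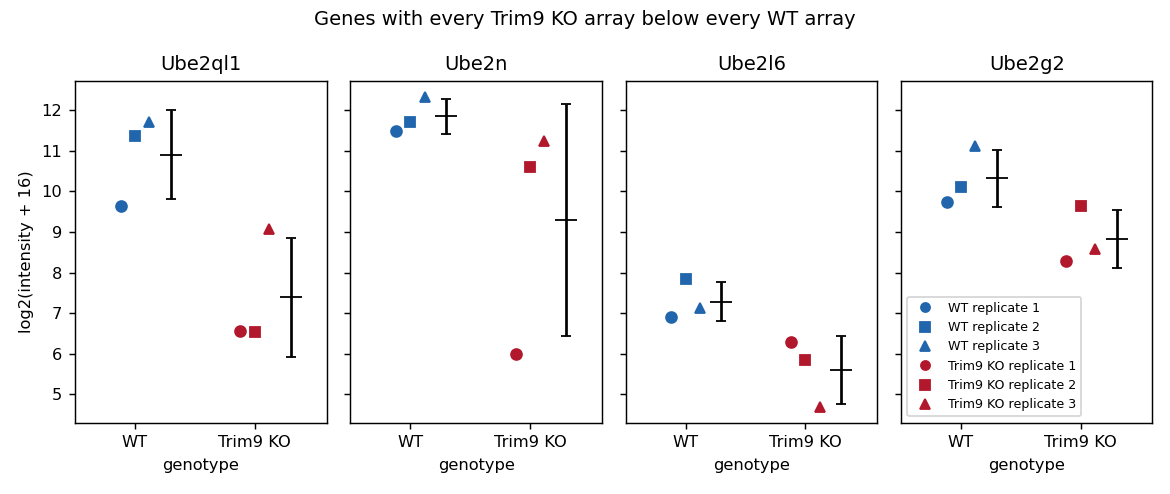
Log2(intensity + 16) (y axis) of Ube2ql1, Ube2n, Ube2l6 and Ube2g2 on each WT (blue) and Trim9 KO (red) array (x axis, genotype), with black bars for mean ± SD (n = 3 each). In each panel the 3 KO points lie below the 3 WT points, and for Ube2n the KO SD of 2.86 comes with Trim9 KO replicate 1 at 6.0.

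The largest difference in the other direction was that of Ube2c, the E2 that starts ubiquitin chains for the anaphase-promoting complex in mitosis. It read 7.99, 8.87 and 5.51 in WT and 10.67, 9.09 and 8.31 in KO retinas, near the median signal of all probe sets. WT replicate 2 lay above Trim9 KO replicate 3, so the groups overlapped, and the log2 fold change was 1.90 (standard error 1.15, adjusted p = 0.999). When array medians were made equal and after quantile normalization, every KO array of Ube2c lay above every WT array. Of 9 measured genes of cycling cells, 9 had a higher mean in KO retinas (median 0.74), and 4 were above the median signal. The defining marker Mki67 read 4.37, 5.33 and 4.70 in WT, close to the floor of 4 that the added 16 sets, and 10.52, 8.80 and 5.40 in KO retinas. Its log2 fold change of 3.44 was the largest of the list, while Ccna2, the brightest gene of the list, had 0.077. Without Trim9 KO replicate 1, Top2a (-0.19) and Cdc20 (-0.053) turned lower and the rest stayed higher. The summed level of the 9 genes was 11.13 to 12.41 in WT and 11.84 to 13.42 in KO retinas on the log2 scale. It was highest on Trim9 KO replicate 1, as was Ube2c. Of all genes, 31.3% were highest on that array, so a shared peak there is common. The part of cycling cells in the Ube2c values was not tested. Ube2s, which lengthens the chains that Ube2c starts, went the other way at -1.96 (standard error 1.63), with values from 5.33 to 12.88 over the 6 arrays and 0.98 for its other probe set. Ube2t, the E2 of the Fanconi anaemia pathway of DNA repair, had -0.46 (standard error 1.20).

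The upstream sequence of 3 of these genes is shown, because they are the members with the widest difference in each direction and the member tied to interferon. The windows are RefSeq sequence of the assembly GRCm38.p6, from 250 bases before to 50 bases after the gene start, written 5′ to 3′ on the strand of the gene. Ube2ql1 lies on the minus strand at chr13:69739848-69740147, Ube2l6 on the plus strand at chr2:84798578-84798877 and Ube2c on the plus strand at chr2:164769679-164769978. Capitals mark matches, on either strand, to the GC box (GGGCGG), the CCAAT box (CCAAT) and the cell cycle homology region, or CHR (TTTGAA).
Ube2ql1: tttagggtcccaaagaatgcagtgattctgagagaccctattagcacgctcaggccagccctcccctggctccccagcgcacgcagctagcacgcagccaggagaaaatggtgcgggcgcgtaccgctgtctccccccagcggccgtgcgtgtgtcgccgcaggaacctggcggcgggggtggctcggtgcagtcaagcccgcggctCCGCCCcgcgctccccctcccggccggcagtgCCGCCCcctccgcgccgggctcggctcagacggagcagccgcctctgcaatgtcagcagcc
Ube2l6: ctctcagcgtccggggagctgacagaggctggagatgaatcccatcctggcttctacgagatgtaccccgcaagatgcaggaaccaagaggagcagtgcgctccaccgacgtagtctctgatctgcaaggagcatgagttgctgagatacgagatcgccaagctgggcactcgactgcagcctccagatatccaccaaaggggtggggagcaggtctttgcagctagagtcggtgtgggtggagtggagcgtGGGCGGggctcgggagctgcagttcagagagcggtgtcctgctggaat
Ube2c: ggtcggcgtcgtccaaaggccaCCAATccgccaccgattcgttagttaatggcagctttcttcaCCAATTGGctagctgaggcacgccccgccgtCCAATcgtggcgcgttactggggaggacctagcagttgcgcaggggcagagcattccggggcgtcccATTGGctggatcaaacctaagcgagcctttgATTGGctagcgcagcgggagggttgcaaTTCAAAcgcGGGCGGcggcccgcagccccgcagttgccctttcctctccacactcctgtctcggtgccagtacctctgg
The Ube2ql1 window held 2 GC boxes and neither other motif, and the Ube2l6 window held 1 GC box. The Ube2c window held 6 CCAAT boxes, of which 2 on opposite strands overlap and read as 1 run of capitals, together with 1 CHR and 1 GC box. Windows were found for 27 of the 33 members, 36 windows in all. A GC box stood in 28 of them (77.8%), against 35.7% of all 32851 windows. A CCAAT box stood in 7 (19.4%, against 37.4%) and a CHR in 4 (11.1%, against 17.9%). These are matches of letters and not tests of binding.

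Among the RAD6 class, E2s that mark histone H2B and the DNA clamp PCNA, Ube2a had a log2 fold change of -0.32 (standard error 1.14) and Ube2b of -0.40 (standard error 0.90). Ube2a turned to 0.67 without Trim9 KO replicate 1, where it was lowest at 10.68. Among the E2s that build chains for degradation, Ube2g1 read 14.95, 13.34 and 13.23 in WT and 14.94, 14.32 and 14.86 in KO retinas. WT replicate 1 sat with the KO arrays, and the log2 fold change was 0.87 (standard error 0.95), but -1.26 (standard error 1.37) on its other probe set. Ube2r2, the E2 of cullin-RING ligases that resembles yeast CDC34, had -0.073 (standard error 0.97), and Ube2k had -0.51 (standard error 0.97). In the mean of probe sets the sign turned for each, to -0.20 for Ube2g1, 0.33 for Ube2r2 and 0.44 for Ube2k.

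Other E2s of ubiquitin-like proteins overlapped between genotypes. Ube2f, which transfers NEDD8 to cullin 5, had a log2 fold change of 1.14 (standard error 0.98). The other probe sets of Ube2f had 0.049, -0.63, -0.53, 2.10 and -0.16, and the mean of its probe sets had 0.33. Ube2z, which takes ubiquitin and FAT10 from the E1 UBA6, had -0.87 (standard error 1.13). Ube2h, of a ligase complex active in red cell maturation, read 14.22, 14.02 and 12.71 in WT and 13.97, 14.74 and 14.11 in KO retinas. WT replicate 3 was the low array, and the log2 fold change was 0.62 (standard error 0.94). The other probe sets of Ube2h had -0.29, -1.24 and -0.69, and the mean of its probe sets had -0.40, so its direction was not settled. Ube2o, a large enzyme that acts as E2 and E3 at once, had -1.46 (standard error 1.03), and the dim Ube2u had -1.52 (standard error 1.24). The 2 members that are not E2s had log2 fold changes of 1.47 (standard error 1.09) for Ube2cbp and -0.15 (standard error 1.07) for Ube2d-ps. Without them the median of the other 31 genes was -0.40 and the 4 genes without overlap were the same.

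Ube2w, which attaches ubiquitin to the N-terminus of proteins, was the member whose probe sets disagreed by more than 1 log2 unit on both sides of 0. Its brightest probe set read 13.77, 12.83 and 11.60 in WT and 14.84, 13.57 and 13.24 in KO retinas (1.15, standard error 1.01), with overlap. The next read 9.11, 10.65 and 11.63 in WT and 8.95, 9.67 and 9.14 in KO retinas (-1.21, standard error 1.00). WT replicate 3 was the lowest array on the former and the highest on the latter. Of the 24 genes with several probe sets, 10 had a lower KO mean on every probe set, 1 (Ube2e3) a higher mean on every one, and 13 had both signs. The probe sets of 1 gene spread over more than 1 log2 unit in 16 of the 24 genes. Over all 81 probe sets, 50 had a lower and 31 a higher mean, with a median of -0.39 against 0.18 for all probe sets.

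**Figure D4:**
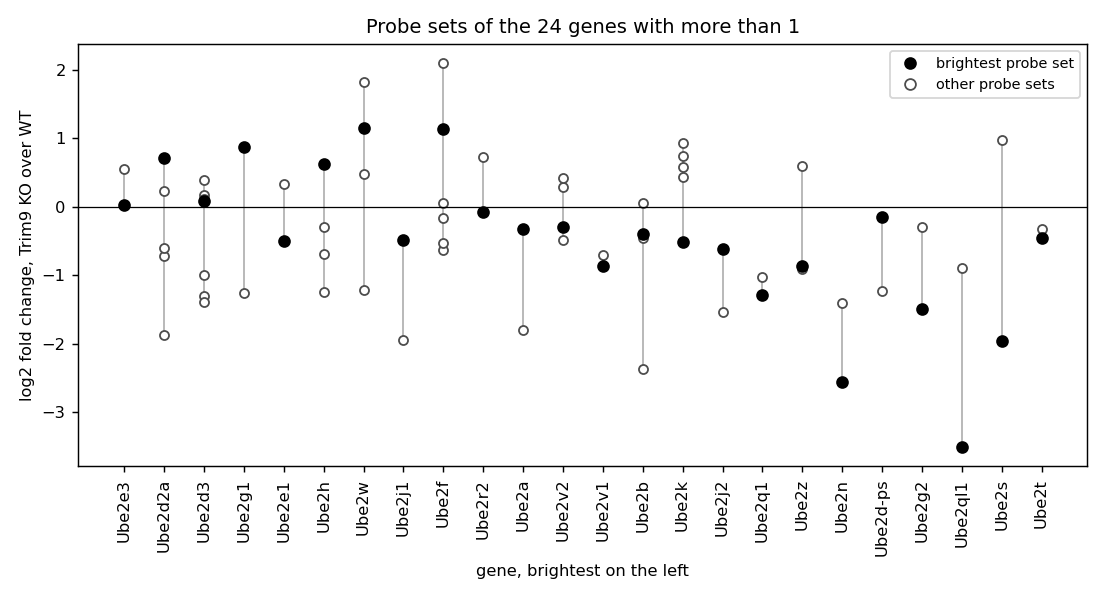
Log2 fold change from WT to Trim9 KO (y axis) of every probe set of the 24 Ube2 genes with more than 1 (x axis, ordered by mean signal), with filled points for the brightest probe set and open points for the others. Ube2w spans -1.21 to 1.83, and 10 genes, among them Ube2n and Ube2ql1, have all points below 0.

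Part of the spread of the members within genotypes ran along a measure of RNA quality. On this array the 3′ end of Actb is read apart from its 5′ end, and a high ratio is usual for degraded or short labelled RNA. The ratio was 19.8, 9.73 and 3.42 on WT replicates 1, 2 and 3 and 2.80, 90.6 and 85.7 on the KO replicates. The 3 arrays with the highest ratio, WT replicate 1 and Trim9 KO replicates 2 and 3, lay above the other 3 for 8 members: Ube2a, Ube2d2a, Ube2d3, Ube2e2, Ube2e3, Ube2f, Ube2h and Ube2r2. This was 24.2% of the members, against 11.9% of all genes. They lay below the other 3 for 4 members, Ube2d-ps, Ube2j2, Ube2s and Ube2z (12.1%, against 10.3%). For Ube2z, named after its values were seen, the brightest probe set read 9.64, 9.26 and 9.78 on the 3 arrays with the highest ratio and 11.71, 12.35 and 12.04 on the others. Its second probe set went the opposite way, with 11.38, 11.25 and 11.25 on the former and 9.64, 10.23 and 6.03 on the latter. The part of RNA quality in the genotype differences was not tested.

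The genotypes were also compared within these sets of arrays, a choice made after the data were seen, with 1 WT against 2 KO arrays in the former and 2 WT against 1 KO array in the latter and no test. The median log2 fold change of the members was -0.27 within the former, against 0.17 for all genes, and -0.64 within the latter, against 0.19. Ube2ql1 had -1.84 and -4.97 within the former and the latter. For Ube2n the values were -0.56 and -6.02, and for Ube2g2 -0.63 and -2.33. For Ube2l6 they were -1.64 and -1.20. Each set holds a single array of 1 genotype, WT replicate 1 in the former and Trim9 KO replicate 1 in the latter, so these values rest on single arrays and do not separate genotype from RNA quality.

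**Figure D5:**
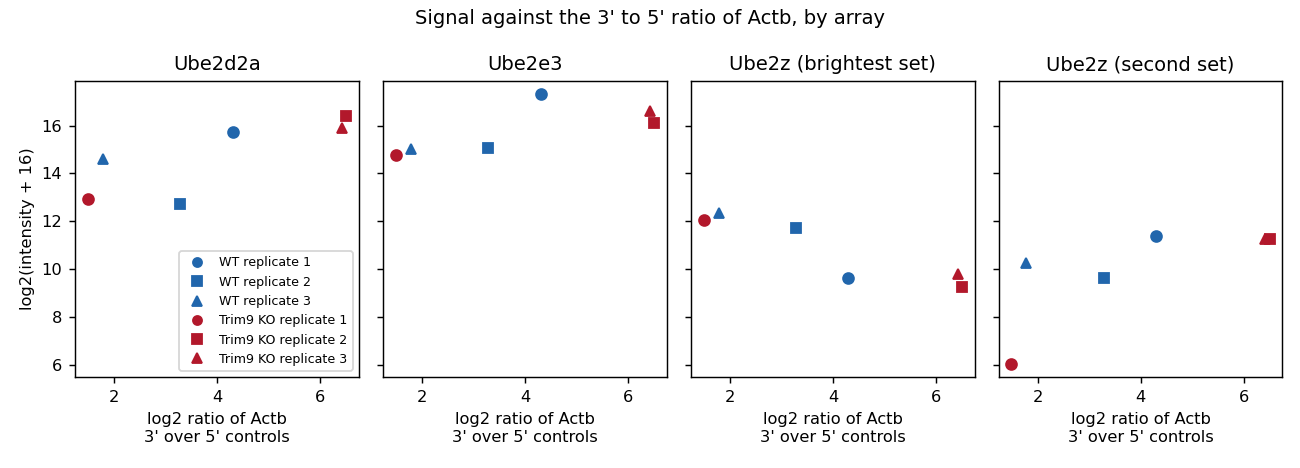
Log2(intensity + 16) (y axis) of Ube2d2a, Ube2e3 and the 2 brightest probe sets of Ube2z against the log2 ratio of the 3′ to the 5′ Actb controls (x axis), where each blue point is a WT array and each red point a Trim9 KO array. The 3 arrays at the right, of both genotypes, are the highest for Ube2d2a, Ube2e3 and the second Ube2z probe set and the lowest for the brightest Ube2z probe set.

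Of 41 measured genes around the E2s in the pathway, 28 had a lower mean in KO retinas (68.3%, against 44.8% of all genes). In limma 0 of 41 passed the adjusted threshold, and 1 (2.44%), Sae1, had an unadjusted p under 0.05, close to the 2.56% of all genes. Of 6 measured E1 genes, 5 had a lower mean (median -0.57). Sae1, a subunit of the E1 for SUMO, read 8.36, 12.35 and 11.74 in WT and 8.83, 7.20 and 8.54 in KO retinas (-2.63, standard error 1.19, limma adjusted p = 0.999). The genotypes overlapped, and the 3 arrays with the highest Actb ratio were its lowest. Uba6 was at -0.62 and Nae1, of the E1 for NEDD8, at -0.091. Of 6 ubiquitin-like modifier genes, 4 had a lower mean (median -0.26), with Nedd8 at -1.03 (standard error 1.00) and Ufm1 at 1.41 (standard error 1.07). Of 8 genes with an E2-like fold and another symbol, 6 had a lower mean (median -0.78). Aktip, which has this fold without the catalytic cysteine, had all its KO arrays below all its WT arrays (-1.55, standard error 0.92).

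Of 21 measured E3 ligases and adaptors that work with these E2s, 13 had a lower mean in KO retinas (median -0.31). The SUMO ligases Pias1 (-1.53, standard error 0.91), Pias4 (-1.37, standard error 0.93) and Ranbp2 (-1.16, standard error 0.94) had no overlap, with KO lower, while Pias3 (-1.19, standard error 1.04) overlapped and Pias2 had a higher mean (0.61, standard error 1.00). Rad18, the ligase that works with the RAD6 class, had every KO array above (1.12, standard error 0.95). Over the 41 pathway genes, 4 had KO lower without overlap (9.76%, against 2.89% of all genes) and 1 KO higher (2.44%, against 5.35%). Traf6 (0.0046) and Rnf8 (-0.31), which use UBE2N, and Anapc11 (-1.35, standard error 0.97), which uses UBE2C and UBE2S, overlapped between genotypes.

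Markers of retinal and neighbouring cells were read on the same arrays. In KO retinas the mean was lower for all 6 rod genes measured (median -0.56), with a summed level of 19.45 to 20.35 in WT and 19.03 to 20.46 in KO retinas. All 6 genes of the retinal pigment epithelium had a higher mean (median 0.84), with a summed level of 16.22 to 18.90 in WT and 18.65 to 20.38 in KO retinas. That sum was mostly Ttr, which alone read 16.04 to 18.84 in WT and 18.26 to 20.37 in KO retinas. Rpe65 read 10.35, 10.89 and 10.86 in WT and 10.62, 10.40 and 13.29 in KO retinas, raised on Trim9 KO replicate 3 only. For Müller glia, 4 of 5 genes had a lower mean and the median was -1.22, but Clu, a bright gene of the list, was at 1.26 (standard error 1.02). Their summed level was 17.49 to 19.09 in WT and 18.38 to 18.75 in KO retinas. The medians were 0.01 for 3 bipolar cell genes and -0.021 for 6 amacrine and ganglion cell genes. They were 0.36 for 6 lens genes, of which 1 was above the median signal, and 0.11 for 3 blood genes, of which 0 were. Their part in the E2 values was not tested.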

How the data were processed

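RNA of 3 WT and 3 Trim9 KO adult retinas was amplified, labelled and read on Affymetrix mouse arrays. The deposited values are linear intensities, scaled by the authors to a common trimmed mean per array. The submitters' processing notes name MAS5 and the study's methods name RMA. The linear scale and unequal medians are those of the former. No column lacked a sample (0), and the scanner files were not used here. After leaving out 64 controls, the deposited intensities of 45037 probe sets were put on the scale log2(intensity + 16) and fitted with limma 3.58.1 (lmFit, eBayes) in R 4.3.3, without filter or block. The fit was tested on simulated data. A gene was read by its brightest probe set that names 1 gene. Probe sets were named from the platform annotation, and all 81 Ube2 probe sets matched a RefSeq gene number. Python 3.11.15, pandas 2.3.3 and matplotlib 3.10.9 were used.

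Any member could be named. Values of all arrays are given for members without overlap, the 6 brightest, the UBE2D, UBE2E and UBE2N groups and the member (Ube2w) with probe sets beyond 1 log2 unit on both sides of 0. For Ube2c, Ube2z and the other probe sets described they were added after values were seen. The members, lists and tests were chosen with earlier results of these data known. Alternatives were other pseudocounts (1 and 64), equal array medians, quantile normalization, a filter on dim probe sets, the mean of probe sets, a replicate block, limma's trend and robust prior and leaving out each array. The number of arrays limits the precision.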

Additional observations from a re-analysis of the deposited data

How the results depend on the processing

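No E2 gene, E2 probe set or gene of the pathway lists passed an adjusted p of 0.05 in any setting run. The number of E2 genes at an unadjusted p under 0.05 was 2 after quantile normalization (Ube2l6 and Ube2ql1) and 2 with limma's trend and robust prior (Ube2n and Ube2ql1), and 1 to 2 when an array was left out. The median log2 fold change of the members was -0.72 when array medians were made equal, against -0.19 for all genes, and -0.50 to -0.20 when an array was left out. The count of members with every KO array above every WT array was 1 with equal array medians and 1 after quantile normalization (Ube2c in both), and 0 to 5 when an array was left out. The count with every KO array below ranged from 4 to 7 then, and leaving out an array cannot take a gene off it. It was 7 when WT replicate 1 or WT replicate 2 was left out. The shares of all genes also rose when an array was left out. They were 4.51% to 10.8% below and 7.77% to 14.7% above, against 2.89% and 5.35% with all arrays. Of all genes, 3.66% were above with equal array medians and 5.4% after quantile normalization. No pairing by replicate number was seen, as deviations of arrays with the same number correlated at -0.234, -0.0815 and 0.0331. These values cannot show whether littermates shared a number, because other differences between arrays also enter them. With the replicate number as a block the median stayed at -0.39. Counts of arrays without overlap have no value under the block or the trend, and probe set counts have none under the mean of probe sets. Of the 33 genes, 18 kept the sign of their log2 fold change in every setting, 15 changed it within 1 standard error and 0 beyond. Ube2l6, Ube2t, Ube2u and Ube2d2b had no value with dim probe sets left out. The cause of these differences was not tested.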
